A study of Mus musculus with 12 samples.

Results

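The Gadd45 genes are Gadd45a, Gadd45b and Gadd45g, which code for the small growth arrest and DNA damage proteins, together with Gadd45gip1, which is named after a partner of them. They were taken by symbol, and the 4 genes (ENSMUSG00000036390, ENSMUSG00000015312, ENSMUSG00000021453 and ENSMUSG00000033751 in that order) were found among 55471 gene IDs. Their levels are described in ventral CA1, the output field of the ventral hippocampus, in acute horizontal slices. The mice were C57BL/6J, wild-type, male and 5 to 7 weeks old. Each of 12 poly(A) RNA sequencing libraries came from tissue of 6 pooled slices frozen 30 min after stimulation, with 3 libraries in each of 4 groups.

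In the Control group the electrodes were in place and only basal pulses were given. The STET group had strong tetanization of CA1, which was 3 trains of 100 pulses at 100 Hz and is used to induce late long-term potentiation. The STET_S100 group had 100 Hz stimulation of the basolateral amygdala in addition. For the STET_S200 group that amygdala stimulation is named as 200 Hz, although the label also gives 100 Hz in brackets. Each mouse gave 1 slice to each group, so the groups share mice, and the p-values below treat the libraries as independent. The samples are pooled slices of the whole CA1 tissue, in which fewer cells of a type and less RNA per cell cannot be told apart. The genes were picked with their differences from Control in these libraries known, so every value against Control below is a description and carries no test.

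Gadd45a, Gadd45b and Gadd45g proteins have no enzyme activity of their own and work by binding partners. They activate the kinase Map3k4 upstream of p38 and Jun kinases, bind Pcna, Cdkn1a and the Cdk1 complex in cell cycle arrest, and bring base excision enzymes to methylated DNA. Gadd45a is the classical p53 target of the family, Gadd45b is induced by NF-kappa-B and by neuronal activity in the hippocampus, and Gadd45g was found as a cytokine-induced early response gene. Gadd45gip1 (also called Crif1) is a protein of the large mitochondrial ribosomal subunit, needed for making the mitochondrially encoded proteins, and is no homologue of Gadd45a, Gadd45b or Gadd45g.

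The 250 bases before the RefSeq start are shown for the 3 genes with a window in the RefSeq table (GRCm38.p6), since their levels are compared with each other below. Capitals mark the motifs found on either strand. The E-box was sought as CACGTG. The TATA box was sought as TATAAA, and the CCAAT box by the letters in its name. The octamer was sought as ATGCAAAT.
Gadd45a (chr6:67037408-67037657, minus strand): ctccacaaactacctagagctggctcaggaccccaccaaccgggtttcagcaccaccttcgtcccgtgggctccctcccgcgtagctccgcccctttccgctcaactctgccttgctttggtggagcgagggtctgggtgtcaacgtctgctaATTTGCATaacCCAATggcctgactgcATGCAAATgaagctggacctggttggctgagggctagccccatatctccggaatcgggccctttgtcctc
Gadd45b (chr10:80929841-80930090, plus strand): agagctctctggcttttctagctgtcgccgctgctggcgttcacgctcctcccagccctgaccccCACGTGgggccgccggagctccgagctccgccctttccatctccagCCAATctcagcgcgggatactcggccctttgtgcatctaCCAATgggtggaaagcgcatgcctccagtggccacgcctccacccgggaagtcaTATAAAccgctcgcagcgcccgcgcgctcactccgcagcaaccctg
Gadd45g (chr13:51846425-51846674, plus strand): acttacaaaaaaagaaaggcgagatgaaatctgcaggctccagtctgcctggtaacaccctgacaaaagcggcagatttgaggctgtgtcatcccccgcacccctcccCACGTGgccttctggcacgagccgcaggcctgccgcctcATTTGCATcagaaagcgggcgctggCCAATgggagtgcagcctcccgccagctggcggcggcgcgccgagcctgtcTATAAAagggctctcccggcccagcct

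A CCAAT box stood in all 3 windows, once in Gadd45a and in Gadd45g and 2 times in Gadd45b. The same 5 letters were found in 33.8% of all 32851 windows. Gadd45b and Gadd45g both held a TATA box, whose first base lay 46 and 27 bases before the start, and an E-box, 185 and 142 bases before it. Among all windows 12.4% held TATAAA and 6.02% held CACGTG. Gadd45g and Gadd45a shared the octamer, which was rarer at 1.60% of windows, with 1 copy in Gadd45g and 2 in Gadd45a on opposite strands. None of the 3 windows held the cyclic AMP response element TGACGTCA (1.55% of all windows), its core TGACG (17.8%), the AP-1 site TGANTCA (6.75%), the serum response factor box named CArG (1.47%) or the NF-kappa-B site (3.90%). The windows held 11 CG pairs in Gadd45a, 22 in Gadd45b and 16 in Gadd45g against a median of 6. These are matches of letters only.

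All 12 libraries carried markers of CA1 pyramidal neurons, with Wfs1 at 76.0 to 99.2 CPM (the count scaled to the size of its library) and Fibcd1 at 289.8 to 437 CPM. Pou3f1 ran from 65.9 to 80.7 CPM and Man1a from 85.6 to 115 CPM. Dentate granule markers summed to 24.3 to 107 CPM and microglia markers to 92.4 to 127 CPM. The dentate sum was lowest in STET_S200 3, at 24.3 CPM, and in Control 3, at 33.9 CPM, and was 58.6 CPM or more in the other libraries. Choroid plexus markers ran from 8.44 to 3050 CPM and were low in all 3 STET_S200 libraries, at 8.44 to 52.7 CPM against 209 to 1293 CPM in Control. They were also low in STET_S100 3, at 21.6 CPM, against 2018 CPM in STET_S100 1 and 3050 CPM in STET_S100 2. Fabp4, a transcript of fat cells and capillaries, separated 5 libraries from the 7 others. In the 5 its level was 7.08 to 8.46 CPM, and these were libraries 2 and 3 of STET_S200, 1 of STET_S100, 3 of STET and 3 of Control. The 7 others had 0.275 CPM or less. Alb, listed beside Fabp4 as a peripheral tissue marker, reached 8.47 CPM in Control, 8.31 CPM in STET_S100 and 7.77 CPM in STET_S200. In STET it reached only 0.0868 CPM. The total count per library ran from 36347161 to 52829181.

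Gadd45g was the member with the largest difference between groups. It stood at 56.9, 57.3 and 45.2 CPM in Control and at 84.9, 89.5 and 83.5 CPM in STET. In STET_S100 it stood at 67.6, 95.0 and 76.9 CPM, and in STET_S200 at 87.2, 74.5 and 69.7 CPM. All 9 stimulated libraries lay above all 3 Control libraries, the nearest pair being STET_S100 1 and Control 2. The mean was 53.1 ± 6.89 CPM in Control (SD, n = 3 in each group). It was 86.0 ± 3.16 CPM in STET, 79.8 ± 13.9 CPM in STET_S100 and 77.1 ± 9.02 CPM in STET_S200. In that order of levels the stimulated groups overlapped one another and Control stood apart below them.

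The log2 fold change of Gadd45g over Control was 0.69 ± 0.14 (SE) in STET, a 1.62-fold difference. It was 0.58 ± 0.14 in STET_S100 and 0.54 ± 0.14 in STET_S200, or 1.50-fold and 1.45-fold. The mean of the stimulated groups over Control gave 0.60 ± 0.12. Groups without overlap and with the first higher made up 4.69% of all 19492 genes tested for STET, 5.19% for STET_S100, 5.73% for STET_S200 and 0.549% for the 9 stimulated libraries against Control.

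Over all genes edgeR's quasi-likelihood test called 0 genes (0%) at an adjusted p under 0.05 for each of these comparisons, beside 3.5%, 5.16%, 5.92% and 5.47% of genes (683, 1006, 1154 and 1066) at an unadjusted p under 0.05. DESeq2 called 1 gene for STET against Control (0.00513%), 3 for STET_S100 (0.0154%), 4 for STET_S200 (0.0205%) and 7 for the stimulated mean (0.0359%). These are counts over all genes, and Gadd45g is among those counted for STET and for the stimulated mean. As the members were picked with these differences known, nothing is read from these calls for the Gadd45 genes. Limma-voom called 0 genes (0%) in each of the 4 comparisons. In edgeR the pooled estimate of spread entered the variance of Gadd45g with 0.927 prior degrees of freedom, where the median gene had 8.90.

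The libraries with Fabp4 above 1 CPM were the lowest in Gadd45g in 4 of 4 groups. The count was 3 of 4 for Gadd45a, 2 of 4 for Gadd45b and 2 of 4 for Gadd45gip1, and the share over all genes was not computed. Control 3 and STET_S200 3, lowest of their groups in Gadd45g, were also lowest in dentate granule markers. In STET_S100 the library lowest in Gadd45g, STET_S100 1, was the highest of its group in these markers, at 93.8 CPM. A part of tissue content in these levels was not tested. The values of Gadd45g without the libraries with Fabp4 above 1 CPM, and with a term for them, follow. With the 7 other libraries alone the difference was 0.61 ± 0.09 for STET, 0.59 ± 0.09 for STET_S100 and 0.61 ± 0.11 for STET_S200, where 1 library was left and was assumed to vary like the others. With all 12 libraries and a term for these 5, the difference was 0.70 ± 0.08 for STET, 0.59 ± 0.08 for STET_S100 and 0.62 ± 0.08 for STET_S200. Leaving out any 1 library kept the stimulated mean over Control between 0.50, without Control 3, and 0.66, without Control 2. The spread of Gadd45g between libraries of a group was 13.0% of the mean in Control and 17.5% in STET_S100, against a counting error of 2.11% and 1.65%. It was 3.67% in STET, with a counting error of 1.58%.

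**Figure D1:**
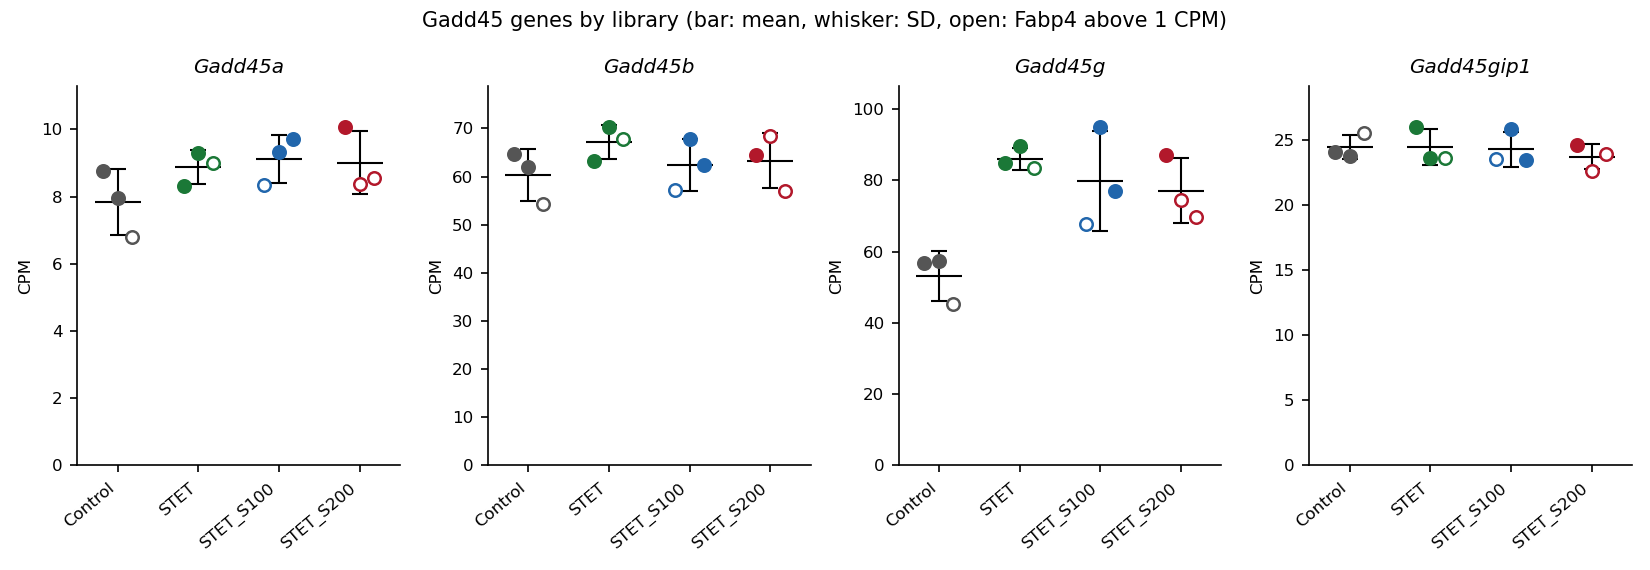
Level of each of the 4 genes in CPM (vertical axis, from 0) by group. Points are single libraries, open where Fabp4 was above 1 CPM, with the mean and the SD over 3 libraries; Gadd45g in all 9 stimulated libraries lies above its 3 Control libraries, and the other 3 genes overlap with Control.

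Gadd45b, the member best known from activity-dependent DNA demethylation in the hippocampus, differed less. Its levels were 64.6, 62.0 and 54.3 CPM in Control and 63.3, 70.4 and 67.7 CPM in STET. They were 57.1, 67.8 and 62.4 CPM in STET_S100 and 64.5, 68.4 and 57.1 CPM in STET_S200. Each stimulated group overlapped with Control, and the order of the means was STET (67.1 ± 3.57), STET_S200 (63.3 ± 5.78), STET_S100 (62.4 ± 5.34) and Control (60.3 ± 5.39), with every neighbour overlapping. The log2 fold change over Control was 0.15 ± 0.08 in STET, 0.05 ± 0.08 in STET_S100 and 0.07 ± 0.08 in STET_S200. Without Control 3, the lowest library, these became 0.08, −0.02 and −0.0013, and that of the stimulated mean went from 0.09 to 0.02.

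Because Gadd45b and Gadd45g are counted in the same library, their read ratio does not depend on how libraries are scaled. Control libraries held 0.880, 0.924 and 0.833 Gadd45g reads per Gadd45b read. STET libraries held 1.34, 1.27 and 1.23, STET_S100 libraries 1.18, 1.40 and 1.23, and STET_S200 libraries 1.35, 1.09 and 1.22. Gadd45b was thus the gene with more reads in all 3 Control libraries and Gadd45g in all 9 stimulated ones. This is a description of genes picked with their differences known, and the share over other gene pairs was not computed. The ratio takes no account of exon length. The mean ratio was 0.879 ± 0.0459 in Control. In the stimulated groups it was 1.28 ± 0.0548 (STET), 1.27 ± 0.114 (STET_S100) and 1.22 ± 0.132 (STET_S200). The highest upper limit in Control was 0.981 (Control 2) and the lowest lower limit in a stimulated library was 1.04 (STET_S200 2), as 95% exact intervals that cover counting error only.

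**Figure D2:**
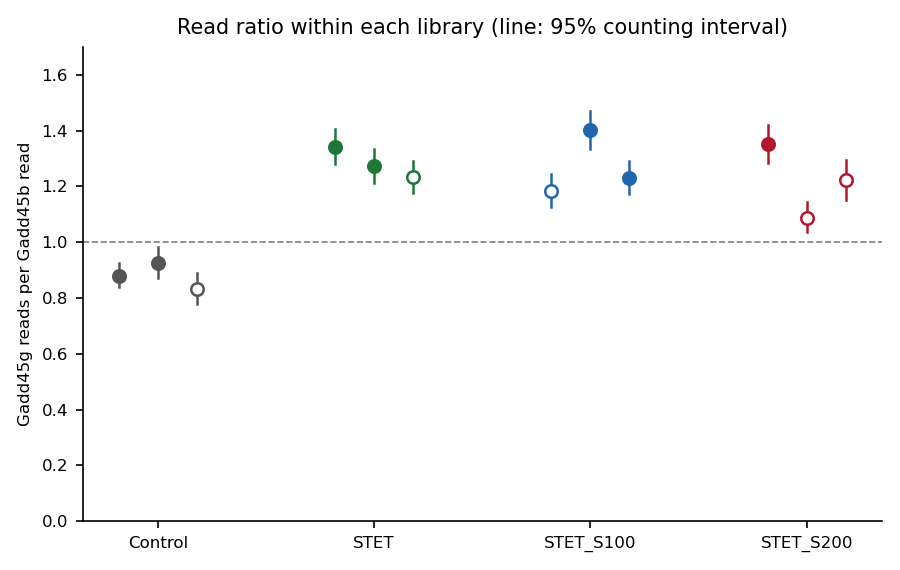
Gadd45g reads per Gadd45b read (vertical axis, from 0) in each library by group, with the 95% counting interval as a line and open points where Fabp4 was above 1 CPM. The 3 Control libraries sit between 0.833 and 0.924 and the 9 stimulated ones between 1.09 and 1.40.

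Per kilobase of annotated exon the order of the genes was Gadd45g, Gadd45b, Gadd45gip1 and Gadd45a in each of the 4 groups. In Control the levels were 45.3 ± 5.87 CPM per kilobase for Gadd45g, 37.9 ± 3.39 for Gadd45b, 9.80 ± 0.373 for Gadd45gip1 and 4.45 ± 0.555 for Gadd45a. In STET they were 73.3 ± 2.69, 42.3 ± 2.25, 9.78 ± 0.553 and 5.03 ± 0.284 in the same order. These levels use all exons annotated in GENCODE M21, which are 1173, 1589, 2494 and 1764 bases.

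Gadd45a, the p53 target of the family, had the lowest level per kilobase, with 249 to 470 reads per library. It stood at 8.75, 7.97 and 6.81 CPM in Control and at 8.32, 9.29 and 9.00 CPM in STET. In STET_S100 the levels were 8.33, 9.34 and 9.71 CPM, and in STET_S200 10.1, 8.37 and 8.56 CPM. Of the 9 stimulated libraries 5 lay above all Control libraries, and each stimulated group overlapped with Control. The group means ran from 7.84 ± 0.980 CPM in Control through STET (8.87 ± 0.500) and STET_S200 (9.00 ± 0.938) to STET_S100 (9.13 ± 0.714), with every neighbour overlapping. The log2 fold change over Control was 0.17 ± 0.11 in STET, 0.21 ± 0.11 in STET_S100 and 0.20 ± 0.11 in STET_S200. Without Control 3 these were 0.08, 0.12 and 0.10. A gene on the opposite strand, E230016M11Rik, shares 337 exon bases with Gadd45a and had 134 to 217 reads, and reads of the pair may be mixed, as the sources used here do not say how strand was counted.

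Gadd45gip1, the mitochondrial ribosome gene, was the steadiest member. Its lowest and highest libraries were 23.8 and 25.5 CPM in Control, 23.6 and 26.0 in STET, 23.5 and 25.8 in STET_S100, and 22.6 and 24.6 in STET_S200. All groups overlapped, and the means were 24.4 ± 0.929, 24.4 ± 1.38, 24.3 ± 1.34 and 23.7 ± 0.982 CPM. The log2 fold change over Control was −0.0016 ± 0.06 in STET. It was −0.01 ± 0.06 in STET_S100 and −0.04 ± 0.06 in STET_S200. Its SD of log2 CPM within groups was 0.07, against 0.18 for Gadd45g, 0.14 for Gadd45a and 0.12 for Gadd45b.

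The groups with amygdala stimulation were then compared with tetanization alone and with each other, which asks whether the amygdala input added to the change. No member passed the threshold of adjusted p under 0.05 over 19492 genes in these 3 comparisons, with edgeR's quasi-likelihood test calling 0 genes (0%) in each, beside 3.16%, 4.56% and 5.2% of genes (615, 888 and 1014) at an unadjusted p under 0.05. DESeq2 called 1, 16 and 5 genes (0.00513%, 0.0821% and 0.0257%) and limma-voom 0 (0%), none of them a member. The percentages are of all 19492 genes, of which DESeq2 gave an adjusted p to 14952 in STET_S200 against STET. Gadd45g was 0.11 ± 0.14 lower on the log2 scale in STET_S100 than in STET (log2 fold change −0.11, 95% interval −0.42 to 0.20, edgeR adjusted p = 1). In STET_S200 against STET it gave −0.16 ± 0.14 (interval −0.47 to 0.16, edgeR adjusted p = 0.941), and in STET_S200 against STET_S100 −0.05 ± 0.14 (interval −0.36 to 0.27, edgeR adjusted p = 0.993). These intervals leave room for a difference in either direction, up to the size of 0.47 on the lower side.

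Gadd45b gave −0.11 ± 0.08 in STET_S100 against STET (interval −0.28 to 0.07, edgeR adjusted p = 1) and −0.08 ± 0.08 in STET_S200 against STET (interval −0.26 to 0.09, edgeR adjusted p = 0.945). Between the amygdala groups it differed by 0.02 ± 0.08. The differences of Gadd45a were 0.04, 0.02 and −0.02 in the same 3 comparisons, each with an SE of 0.11. For Gadd45gip1 they were −0.01, −0.04 and −0.03, each with an SE of 0.06. In all 12 of these differences the groups overlapped, while 9.6%, 12% and 9.34% of all genes had groups without overlap in either direction.

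**Figure D3:**
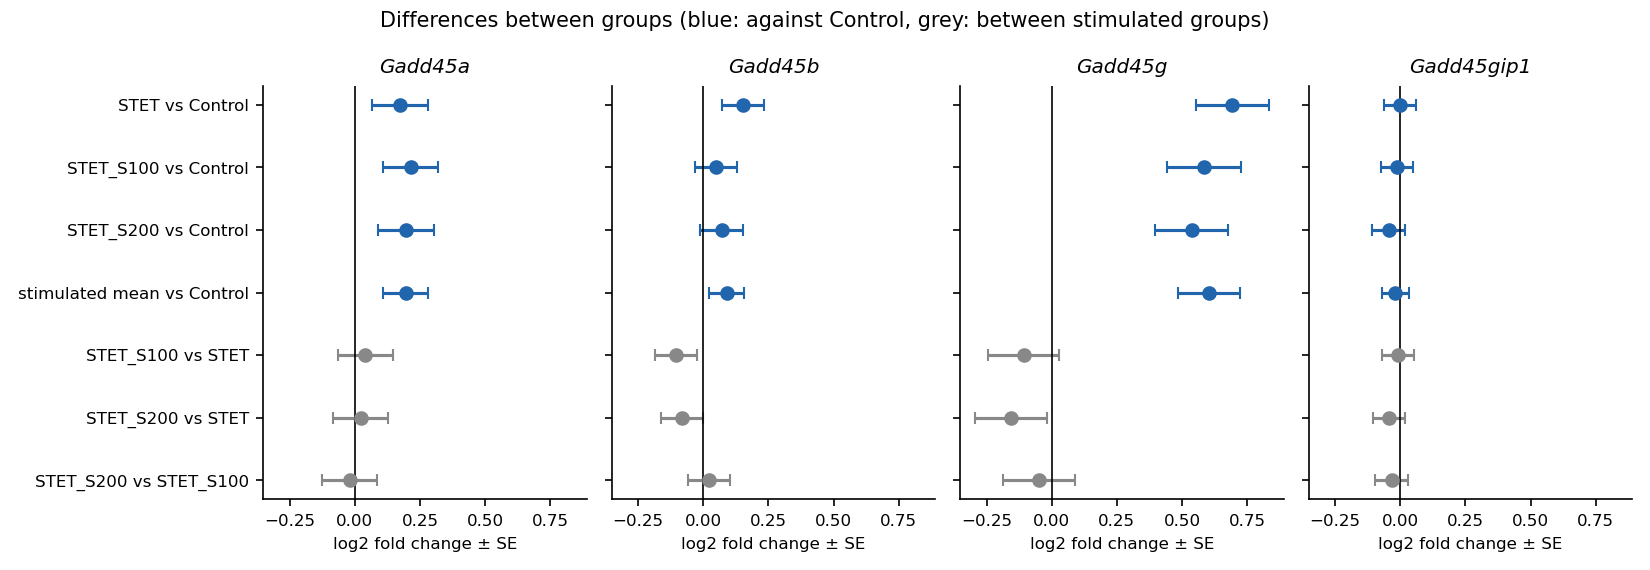
Log2 fold change (horizontal axis) with its SE for each of the 4 genes in 7 comparisons (vertical axis), blue against Control and grey between stimulated groups. The 4 differences of Gadd45g over Control lie between 0.54 and 0.69, and those between stimulated groups lie between −0.16 and 0.04 over the 4 genes.

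Across the 12 libraries Gadd45a, Gadd45b and Gadd45g went up and down together. Pearson's r of log2 CPM was 0.80 for Gadd45a with Gadd45g, 0.70 for Gadd45b with Gadd45g and 0.63 for Gadd45a with Gadd45b. After each group's mean was taken off, the same pairs gave 0.76, 0.80 and 0.65. The order of libraries within a group was not always shared: STET_S200 2 was the highest of its group in Gadd45b and the lowest in Gadd45a. Gadd45gip1 gave 0.02 with Gadd45g and −0.20 with Gadd45a. These are descriptions of 12 libraries that share mice, tissue content and scaling. Control 3 was the lowest of the 12 libraries in each of Gadd45a, Gadd45b and Gadd45g.

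The genes most like Gadd45g over the 12 libraries, out of 13341 compared, are all known as early response genes. They were Arc (r = 0.95), which regulates AMPA receptor endocytosis, Btg2 (0.95), which promotes mRNA deadenylation, the AP-1 subunits Junb (0.93) and Jun (0.92), and the calcium-induced transcription factor Npas4 (0.92). With group means taken off, the values were 0.95 for Jun, 0.87 for Btg2, 0.87 for Junb, 0.845 for Arc and 0.67 for Npas4. Gadd45g differed from Control by less than Arc (1.38 ± 0.29 for the stimulated mean), Npas4 (1.59 ± 0.36) and Btg2 (1.06 ± 0.26) and by more than Junb (0.51 ± 0.15) and Jun (0.28 ± 0.09) on the log2 scale. No test compared these sizes. Btg2 averaged 31.4 ± 4.45 CPM in Control and 66.7 ± 12.5 CPM in STET.

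Other genes stood nearest to the remaining members. For Gadd45a they were the growth factor feedback gene Spry2 (r = 0.92), the RNA helicase gene Ddx3x (0.91), the growth factor gene Pdgfa (0.89), the neuronal pentraxin gene Nptx2 (0.89) and BC049715 (0.89). For Gadd45b they were the atypical kinase gene Mapk6 (0.88), the NF-kappa-B signalling protease gene Malt1 (0.88), Hspbap1 (0.87), the macrophage elastase gene Mmp12 (0.87) and the repressor gene Erf (0.87). For Gadd45gip1 the first was Ergic3 (0.89), followed by Zswim1 (0.86), Efcab6 (0.85), Nova1 (0.83) and Gcfc2 (0.82). Arc gave r = 0.71 with Gadd45a, 0.52 with Gadd45b and 0.16 with Gadd45gip1. With group means taken off, the order differed, at 0.46, 0.47 and 0.56. Npas4 with Gadd45gip1 likewise went from 0.26 to 0.71.

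**Figure D4:**
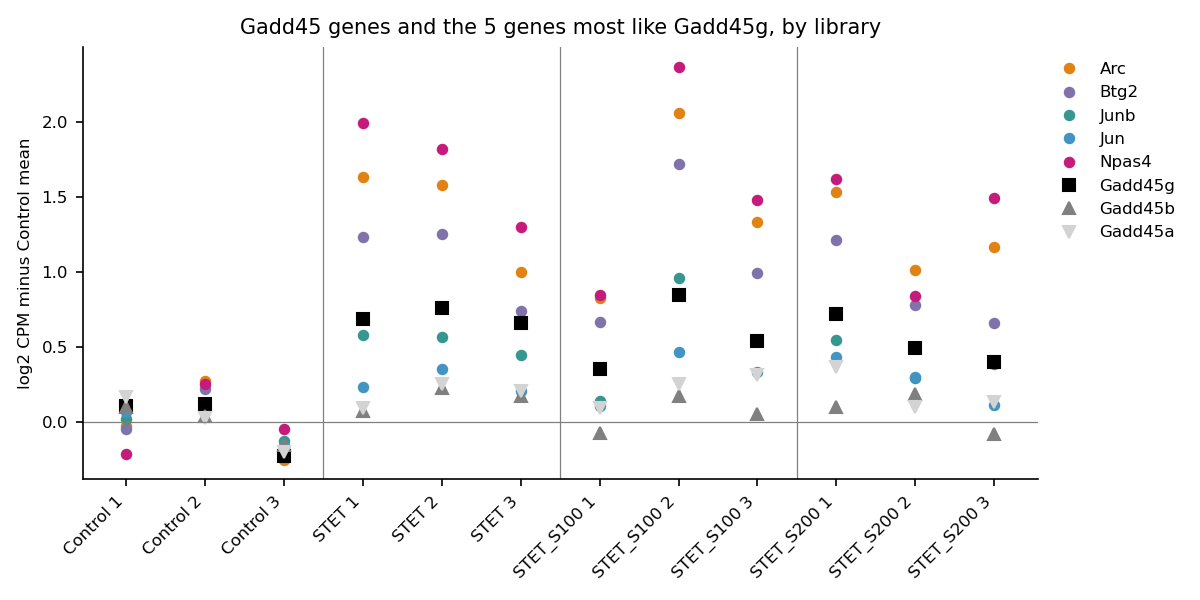
Log2 CPM minus the Control mean (vertical axis) in each of the 12 libraries (horizontal axis) for Gadd45a, Gadd45b and Gadd45g and the 5 genes most like Gadd45g. Gadd45g (squares) lies between 0.36 and 0.85 in the stimulated libraries, and STET_S100 1 has its lowest and STET_S100 2 its highest value.

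Genes that work with the Gadd45 proteins or are induced with them were described by list. Over all genes 50% were higher in the stimulated mean than in Control, and the median difference was 0.00 on the log2 scale. EdgeR called 0 genes (0%) in each comparison with Control, so 0 genes of any list passed in either direction. Of the MAP kinase partners 11 of 12 were tested, 5 were positive and the median was −0.01. Map3k4, the kinase that Gadd45 proteins activate, averaged 42.1 ± 0.624 CPM over the Control libraries. Its means with tetanization were 39.4 ± 0.266 CPM (STET), 39.3 ± 1.85 CPM (STET_S100) and 37.7 ± 1.06 CPM (STET_S200). The 9 stimulated libraries gave Map3k4 a log2 fold change of −0.12 ± 0.04, and those of the kinase genes Map2k6, Map2k7 and Mapk14 were −0.13 ± 0.06, −0.03 ± 0.05 and −0.01 ± 0.03. For Map3k4 and Map2k6, 2 of the 11 tested, all 9 stimulated libraries lay below all Control libraries, against 0.441% of all genes.

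All 4 cell cycle partners were tested, 2 were positive for the stimulated mean and the median was −0.05. Cdkn1a, the p21 inhibitor of cyclin-dependent kinases, gave 0.17 ± 0.06 in STET, 0.08 ± 0.06 in STET_S100 and 0.0033 ± 0.06 in STET_S200. For the stimulated mean the DNA clamp gene Pcna gave 0.06 ± 0.05. The mitotic kinase gene Cdk1 gave −0.24 ± 0.31 and its cyclin gene Ccnb1 −0.16 ± 0.34, at mean levels of only 0.388 and 0.406 CPM. The DNA demethylation and base excision list had 19 genes tested, 11 positive and a median of 0.02 for the stimulated mean. Its dioxygenase genes Tet1, Tet2 and Tet3, which start demethylation, gave −0.04 ± 0.07, 0.05 ± 0.07 and 0.07 ± 0.07, and the glycosylase gene Tdg gave 0.06 ± 0.04. Dnmt3b, a DNA methyltransferase gene named here after its value was seen, lay farthest from 0 in the list, at 0.42 ± 0.24 and a mean level of only 0.757 CPM. The genes reported as Gadd45b targets in the hippocampus were the growth factor genes Bdnf (0.02 ± 0.20) and Fgf1 (−0.0024 ± 0.06).

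In the p53 target list 14 of 19 genes were positive for the stimulated mean, with a median of 0.09. All 9 stimulated libraries lay above Control in 2 of the 19, against 0.549% of all genes. They lay below it in 0, against 0.441% of all genes. Mdm2, the ligase that degrades p53, gave 0.09 ± 0.04, Plk2, a kinase of synaptic scaling, 0.07 ± 0.04, the cyclin gene Ccng1 −0.05 ± 0.05 and Sesn1 −0.09 ± 0.04. Btg2 is in this list and in that of the rapid activity-regulated genes. It is among the 2 genes of the p53 list with all 9 stimulated libraries above Control. Of the other genes with a GADD name, Ppp1r15a (GADD34), which restores translation after stress and is also in the rapid list, gave 0.16 ± 0.08 and Ddit3 (GADD153), a stress transcription factor, 5e-04 ± 0.08. The rapid activity-regulated genes had 16 of 20 positive and a median of 0.36. In 8 of the 20 all 9 stimulated libraries lay above Control, against 0.549% of all genes. In 1 of the 20 they all lay below Control, against 0.441% of all genes. This list was chosen with earlier results of these libraries known. In their promoter windows TGACG, which none of the 3 Gadd45 windows held, was found in 15 of the 16 genes with a window, against 19.8% of the 27025 genes with a window.

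The large mitochondrial ribosomal subunit list, to which Gadd45gip1 belongs by function, had 48 of 49 genes tested. For the stimulated mean 30 were positive with a median of 0.0087. None of the 48 stood wholly above or below Control, against 0.549% and 0.441% of all genes. Mrpl1, Mrpl2, Mrpl3 and Mrpl4 gave 0.11 ± 0.07, 0.05 ± 0.05, 1e-04 ± 0.04 and 0.03 ± 0.05, beside −0.02 ± 0.05 for Gadd45gip1.

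**Figure D5:**
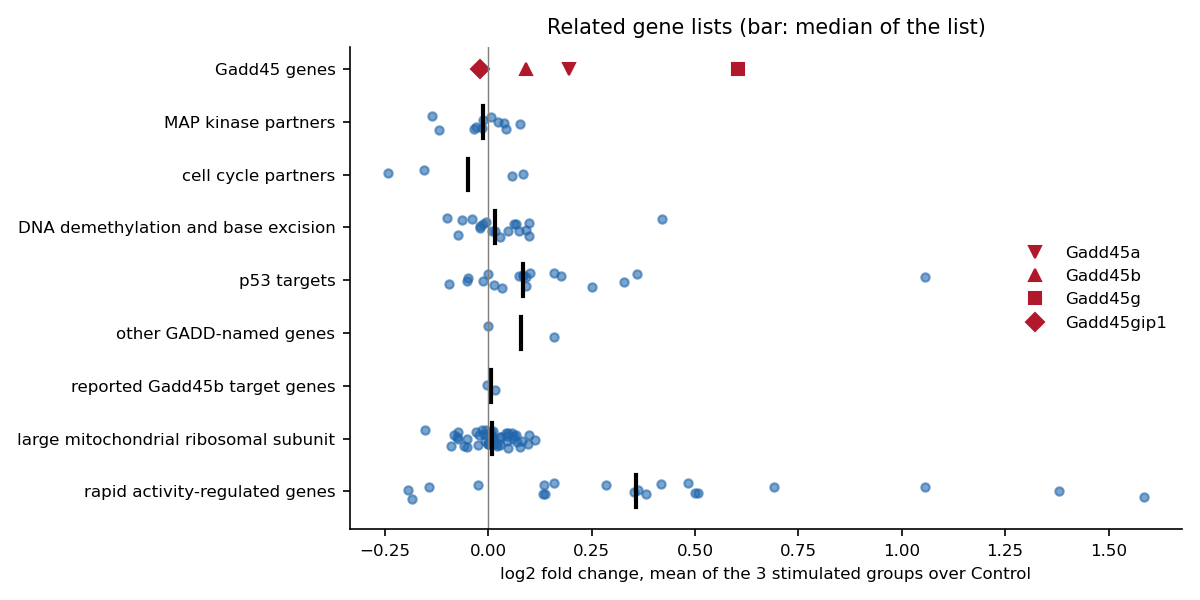
Log2 fold change of the mean of the 3 stimulated groups over Control (horizontal axis) for the 4 genes (red symbols, top) and for each tested gene of 8 lists (points, with the median as a bar). Gadd45g at 0.60 lies above the medians of all 8 lists, which run from −0.05 to 0.36.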

How the data were processed

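RNA of ventral CA1 slices was measured in 12 directional poly(A) libraries. The authors deposited raw counts for each Ensembl gene. Per the submitters' processing notes, HTSeq 0.11.2, STAR 2.7.1a, Trimmomatic 0.39, limma and R 4.0.2 were used. The genome build, annotation release and strand setting were not given in the sources. Symbols (55144 of 55471 IDs) and exon lengths came from GENCODE M21.

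TMM factors (trimmed mean of M values) scaled the counts, which were fitted with edgeR 4.0.16 (quasi-likelihood, robust) in R 4.3.3, with 1 coefficient per group over all 12 libraries. The filter filterByExpr (minimum count 10, total 15) kept 19492 genes, the 4 members included. P-values were adjusted by Benjamini-Hochberg over these genes within each comparison. Log2 CPM used a prior count of 2. DESeq2 1.42.0 and limma-voom 3.58.1 were alternatives. The fits were tested on simulated data. No library was a copy of another of its group, the smallest chi-square per degree of freedom between such libraries being 5.16. The labels say that slices were pooled from individual subjects, but not which mice each library holds.

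Some items are not reported here. The members and lists were chosen with earlier results of these data known. Named genes are the 4 members, the first 4 genes of each list, and for each member the 5 genes with the highest r among those with a mean log2 CPM of at least 0, without predicted genes. Dnmt3b was named outside this rule, and Fabp4 and the marker genes because their levels differ between libraries.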

Additional observations from a re-analysis of the deposited data

How the results depend on the processing

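The differences from Control were recomputed under 24 settings, 12 of which left out 1 library each. The sign never changed for Gadd45g or Gadd45a in the 4 comparisons with Control. It changed in 17 of 380 values, all of Gadd45b or Gadd45gip1, and Gadd45gip1 in STET_S200 moved by more than its spread, to 0.037, with the 7 libraries with Fabp4 at or below 1 CPM alone. Between stimulated groups, 0 of 288 values passed the threshold and 23 changed sign. With a term for Fabp4 above 1 CPM, STET_S200 against STET_S100 became 0.0369 for Gadd45a and 0.0373 for Gadd45g. The choroid score gave −0.0035 for Gadd45a in STET_S200 against STET and 0.0506 for Gadd45g in STET_S200 against STET_S100. The 7 libraries alone gave 0.0811, −0.0137 and 0.0205 for Gadd45a, Gadd45b and Gadd45g in STET_S200 against STET_S100.

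Leaving out 1 library at a time gave these ranges. STET_S100 against STET gave −0.0071 to 0.10 for Gadd45a and −0.0568 to 0.0388 for Gadd45gip1. STET_S200 against STET gave −0.0671 to 0.0738 for Gadd45a and −0.0696 to 0.0059 for Gadd45gip1. STET_S200 against STET_S100 gave −0.0382 to 0.0915 for Gadd45b, −0.15 to 0.0928 for Gadd45g, −0.0601 to 0.0106 for Gadd45gip1 and −0.11 to 0.0324 for Gadd45a.

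The number of genes called by edgeR rose from 0 to between 16 and 98 without a filter, none of them a member. The compared groups alone, the 7 libraries alone and 4 of the fits without 1 library (Control 3, STET_S100 3, STET_S200 1 and STET_S200 3) called 1 to 8 genes in 7 cases, none of them a member. The term for Fabp4 called 0 to 4 genes per comparison, Gadd45g among them for STET and for the stimulated mean against Control. As the members were picked with these differences known, nothing is read from those calls. The replicate block (the replicate number as a term) changed no sign or call among 28 values, and gave Gadd45g 0.70 for STET over Control. Correlated deviations over 0.1 were seen in 7 of 18 pairs of libraries with the same number and in 10 of 36 pairs with different numbers. The median correlations were 0.029 and −0.034, and 6 of 12 libraries fitted best with their own number. These values do not settle whether equal numbers mark the same mice. With all 4 groups compared, the stimulated mean has no fit of compared groups alone. Gadd45a had the fewest reads, 249 to 470 per library.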
